A study of Drosophila melanogaster with 4 samples.

Results

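The genes described here encode the subunits of the 3 nuclear RNA polymerases and the TBP-associated factors (Tafs) of *Drosophila melanogaster*. They were taken by name, as all genes whose current FlyBase symbol starts with *Polr1*, *Polr2* or *Polr3*, or with *Taf* and a digit, which gave 45 of the 17023 genes counted. Of these, 30 were *Polr* genes, with 5 that belong to RNA polymerase I (Pol I), 2 to Pol I and Pol III, 5 to all 3 polymerases, 8 to Pol II and 10 to Pol III, and the other 15 were *Taf* genes. Poly(A) RNA of whole ovaries was sequenced in 4 libraries, 2 of germline *aramis* RNAi and 2 of germline *bam* RNAi, which served as the developmental control (n = 2 in each group). Both genotypes carried *UAS-Dicer2* and the *nos*GAL4 driver, so that the double-stranded RNA was made in germ cells, and whole ovaries also hold somatic cells that do not express this driver. Females were 1 to 3 days past eclosion and had been fed yeast. *aramis* is annotated as *ais* and encodes a DEAD-box RNA helicase, and *bam* (*bag of marbles*) is needed for the daughter of a germline stem cell to differentiate. The labels do not say how many flies went into a library or whether replicates came from separate crosses, so p-values measure only the spread between these libraries, which may be technical.

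Pol I makes the long precursor of the large ribosomal RNAs, Pol II makes mRNA precursors and many small nuclear RNAs, and Pol III makes tRNAs, the 5S ribosomal RNA and other short RNAs. Each enzyme is built around a pair of very large catalytic subunits on an assembly platform, with a stalk that binds the emerging RNA and a set of small subunits used in common. Pol II is brought to promoters by general transcription factors, among them TFIID, which consists of the TATA-binding protein (TBP) and the Tafs, and some Tafs also belong to SAGA, a complex that acetylates histones. Growing germ cells are known for high ribosome production, which depends on Pol I and Pol III.

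Each library held between 12977013 and 16754980 counts, and 3 counts, taken as the floor of detection, corresponded to between 0.179 and 0.231 CPM (counts scaled to the library total, in the usual unit). Values below are normalised counts, that is, counts divided by a size factor per library, and fold changes, given as log2, divide *aramis* RNAi by *bam* RNAi, so negative values mean lower in *aramis* RNAi. The targeted gene *ais* was at 117 and 153 under *aramis* RNAi against 910.2 and 323 under *bam* RNAi (log2 fold change -2.19, SE 0.56, DESeq2 adjusted p = 0.00186). *bam* had 50.3 and 72.7 against 60.0 and 70.4 (-0.09, SE 0.69, DESeq2 adjusted p = 0.948), so the libraries labelled *bam* RNAi did not hold less *bam* mRNA than the others. Driver-only ovaries were not analysed here. RNA of most germline markers differed between the groups. Of 14 germline markers, 12 had negative fold changes and 11 were called lower in *aramis* RNAi (median log2 fold change -2.06). The summed level of the 14 was 1324 to 1527 CPM against 3624 to 4985 CPM. *tud* (0.31) and *osk* (0.81) went the other way and were not called, and the listed names *vas* and *nos* were not matched. The 13 ovarian somatic markers summed to 2930.2 to 3293 CPM against 2661 to 2803 CPM, with 1 call (*tj*, lower). The 10 muscle markers summed to 45747 to 46410.1 CPM against 18182 to 22064 CPM, with 6 called higher. No marker of these 3 lists was at 0 in any library. In such bulk samples, fewer cells of a type and less RNA per cell cannot be told apart. The part of these marker differences in the results below was not tested.

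Polymerase subunit and Taf mRNAs were for the most part moderately lower in *aramis* RNAi when libraries were scaled to all genes, and most were higher when they were scaled to the germline markers. Of the 43 members that could be tested, 40 had a negative fold change, compared with 5876 of 11128 tested genes (52.8%), and the median was -0.74 against -0.09 for all tested genes. The call rate was low. At a DESeq2 adjusted p under 0.05, 4 members (9.30%) were lower, where 7.04% of all tested genes were lower, and 0 were higher, where 8.90% of all tested genes were higher. An unadjusted p under 0.05 was reached by 12 members, all of them lower, and the share of all tested genes that reached it was not counted. The edgeR quasi-likelihood test called 3 members lower and 0 higher, where it called 528 of 11128 tested genes lower and 639 higher. Only *Polr2M* and *Polr3G* also passed a limit of 4-fold, a share near the 6.25% of all tested genes that did so in either direction. For 26 of 43 members (60.5%) both *aramis* RNAi libraries were lower than either *bam* RNAi library, where 30.3% of all tested genes had such an order, and they were higher than either for 1 member, *Taf12L*, where 27.4% of all tested genes had that order. For the other 16 the groups overlapped.

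**Figure D1:**
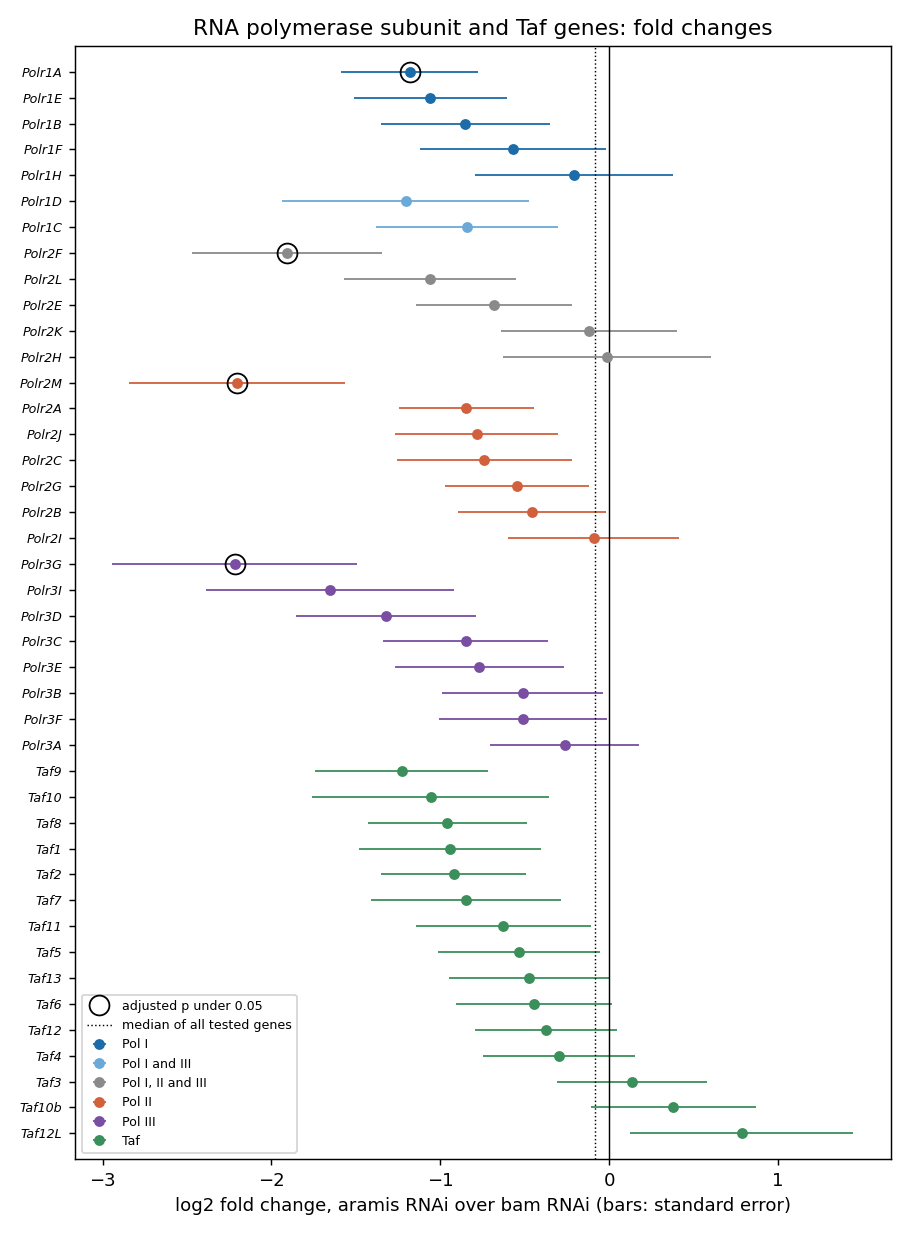
Log2 fold change of 42 of the 43 tested polymerase subunit and Taf genes, *aramis* RNAi over *bam* RNAi, with its standard error as a bar and the class of the gene as colour. The dotted line is the median of all 11128 tested genes (-0.09), 39 of 42 points lie left of 0, and the 4 ringed genes have a DESeq2 adjusted p under 0.05. With libraries scaled to the germline markers in place of all genes, 36 of the 42 points would lie on the other side of 0.

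The direction depends on what the libraries are scaled to. Scaled to the 14 germline markers, the median of all tested genes moved to 1.86 and the median of the members to 1.21. With this scaling 37 members changed sign and 24 of 43 were called higher, where 6768 of 11128 tested genes were called higher. Of the 4 called members, *Polr1A* then had a germline-scaled fold change of 0.78, while *Polr2F* (-0.05), *Polr2M* (-0.32) and *Polr3G* (-0.42) stayed negative and uncalled. Scaled to total counts, the medians were -0.45 and -1.09, and 12 members were called lower, where 1619 of 11128 tested genes were called lower. Relative to the median of all tested genes the members stood at -0.65 in the main scaling, at -0.65 with the germline markers and at -0.64 with total counts. In the main scaling, the median of the members thus lay between that of all tested genes and that of the germline markers.

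Counts of the members summed to 26428 and 25887 under *aramis* RNAi against 37618 and 51213 under *bam* RNAi. This was 0.158% and 0.167% of all counts against 0.290% and 0.347%, and the groups did not overlap. By class the medians were -0.85 for Pol I, -1.02 for the pair shared by Pol I and Pol III, -0.68 for the subunits of all 3 polymerases, -0.74 for Pol II, -0.77 for Pol III and -0.53 for the Tafs. All 28 tested *Polr* genes had negative values, and so had 12 of 15 *Taf* genes. Scaled to the germline markers, each of these 6 medians was positive, between 0.95 and 1.45. The differences between the classes were not tested.

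**Figure D2:**
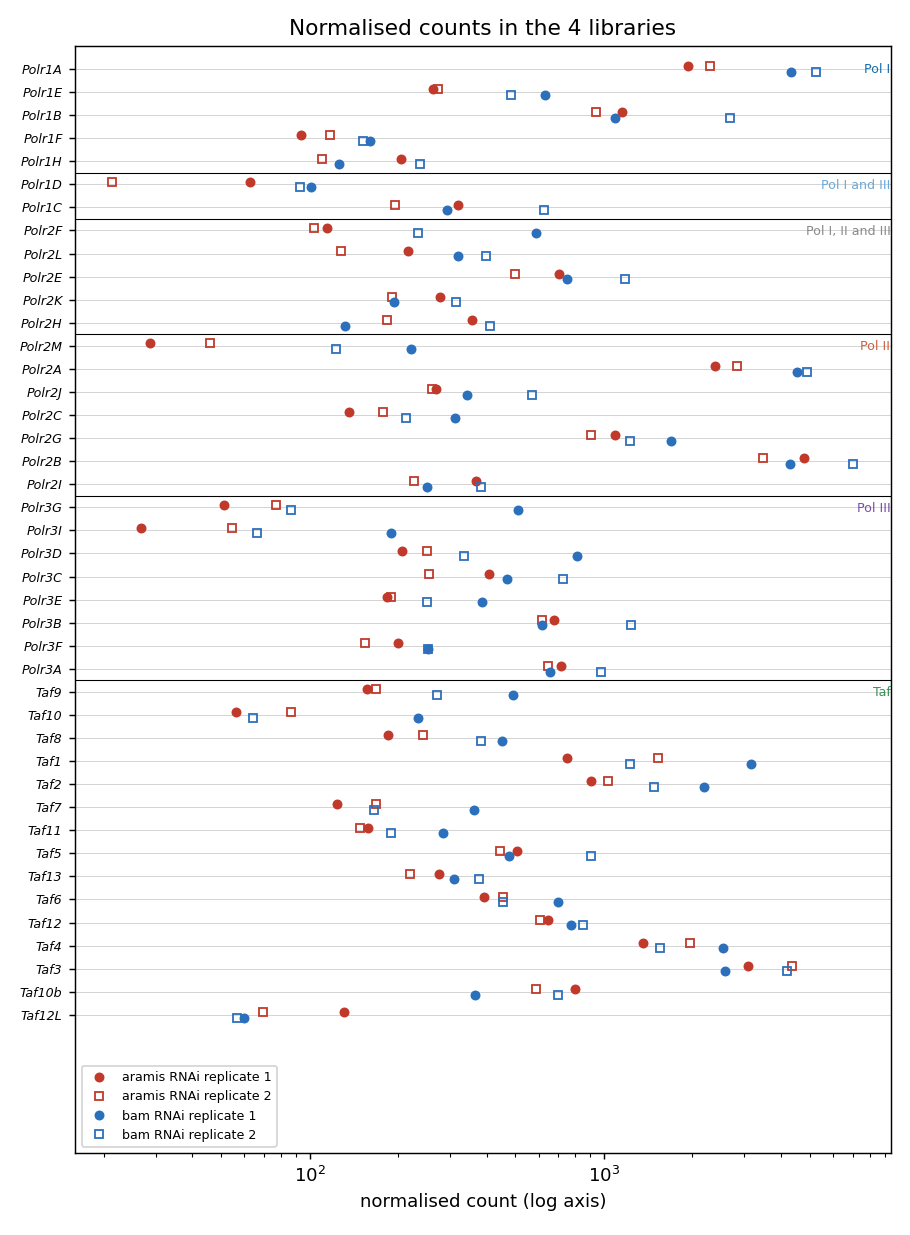
Normalised count of 42 tested members (log axis) in the 2 *aramis* RNAi libraries (red) and the 2 *bam* RNAi libraries (blue), with filled circles for replicate 1 and open squares for replicate 2. *Polr1A*, *Polr2A* and *Polr2M* show red points clear to the left of the blue ones, while *Polr3G* and *Taf1* show *bam* RNAi libraries that lie far apart.

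Pol I held the only call among the catalytic subunits. *Polr1A* (FBgn0019938, chromosome 2R, 14595611 to 14601216, minus strand, dm6) encodes the largest subunit, which forms the active site together with *Polr1B*. It was counted at 1935 and 2299 under *aramis* RNAi against 4335 and 5260.2 under *bam* RNAi, or 2117 ± 258 against 4798 ± 654 (SD, n = 2). The *aramis* RNAi libraries held 44.1% of the *bam* RNAi level, and the gap between the groups was wider than the spread within either. On the log2 scale the fold change was -1.18 with an SE of 0.40 (DESeq2 adjusted p = 0.0261). It ran from -1.31 to -1.04 when each library was left out in turn. The call held without either *bam* RNAi library and was lost without either *aramis* RNAi library and in the edgeR test. *Polr1B*, the second large subunit, had 1151 and 937 against 1089 and 2681. These groups overlapped, since only *bam* RNAi replicate 2 was high (-0.85, SE 0.50, DESeq2 adjusted p = 0.238). Its fold change ran from -1.36 to -0.07 with a library left out, with a call in 1 of the 4 fits, without *bam* RNAi replicate 1 (DESeq2 adjusted p from 0.00373 to 0.923 over these fits).

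The smaller Pol I subunits went from a fold change near that of *Polr1A* to one near 0. *Polr1E*, whose yeast counterpart forms part of a TFIIF-like module, had 262 and 272 against 629 and 484. Both *aramis* RNAi libraries were lower (-1.06, SE 0.45), but the DESeq2 adjusted p was 0.0868. *Polr1F*, a stalk subunit, had 93.4 and 118 against 161 and 152 (-0.57, SE 0.55, DESeq2 adjusted p = 0.522). *Polr1H*, a zinc-ribbon protein that in yeast takes part in RNA cleavage by a stalled enzyme, had the highest value of the class, with 204 and 110.1 against 126 and 237. Its groups overlapped, and the 95% interval of its fold change, -1.36 to 0.94, spans changes in both directions.

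*Polr1C* and *Polr1D* encode the platform on which both Pol I and Pol III are assembled. *Polr1C* had the higher level per kb of the pair, with counts of 320.4 and 194 under *aramis* RNAi against 294 and 629 under *bam* RNAi. The groups overlapped (-0.84, SE 0.54, DESeq2 adjusted p = 0.288). *Polr1D* had 62.6 and 21.4 against 101 and 92.7 (-1.20, SE 0.73, DESeq2 adjusted p = 0.259). Here the *aramis* RNAi values were both lower but differed 2.93-fold from each other. Exons of *Polr1D* and *DCTN6-p27* share 75 bases on opposite strands, 9.92% of the exon bases of *Polr1D*, which leaves its counts less certain.

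Of the 5 subunits that all 3 polymerases use, *Polr2F* stood apart from the rest. *Polr2F* (FBgn0003275, chromosome 3R, 5371795 to 5372397, plus strand) encodes a small subunit that in yeast helps to hold the largest subunit in the enzyme. It had 115 and 104 under *aramis* RNAi against 586 and 234 under *bam* RNAi, or 109 ± 8.03 against 409.8 ± 249 (SD, n = 2). Both *aramis* RNAi values were under the lower of the *bam* RNAi values, and the *bam* RNAi replicates differed 2.51-fold. This gave a log2 fold change of -1.91 with an SE of 0.56 (DESeq2 adjusted p = 0.00826). Among the fits with a library left out it was called only without *bam* RNAi replicate 2, and its value ran from -2.43 to -1.09.

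The other common subunits were weaker or near 0. *Polr2L*, at 216 and 128 against 319.9 and 397, had both *aramis* RNAi values lower (-1.06, SE 0.51, DESeq2 adjusted p = 0.135). It shares 15.3% of its exon bases with *CG13630* on the other strand. *Polr2E*, the member of this class with the highest level per kb over the 4 libraries, had 705 and 498 against 751 and 1178, also without overlap (-0.68, SE 0.46, DESeq2 adjusted p = 0.321). *Polr2H* had 356 and 183 against 132 and 411. The 2 groups thus had nearly the same mean, with *aramis* RNAi at 99.3% of *bam* RNAi, and the 95% interval of the log2 fold change ran from -1.22 to 1.19. *Polr2K* was similar, with a log2 fold change of -0.12 and an interval of -1.14 to 0.90. Subunits needed in the same copy number per enzyme ranged from -1.91 to -0.01 at the mRNA level. Whether *Polr2F* differs from *Polr2E* was described by their ratio of counts per kb, which was 0.310 and 0.396 under *aramis* RNAi against 1.49 and 0.377 under *bam* RNAi. The ratio overlapped between the groups because *bam* RNAi replicate 2 lay inside the *aramis* RNAi range, so this difference among subunits was carried by *bam* RNAi replicate 1.

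Within Pol II the lowest value belonged to a regulator that is not part of the core enzyme. *Polr2M* (FBgn0038692, chromosome 3R, 19229463 to 19230832, plus strand) is the fly gene for Gdown1, a protein known from mammals to bind Pol II and to compete with the initiation factor TFIIF. It was counted at 28.8 and 45.9 under *aramis* RNAi against 221 and 123 under *bam* RNAi, or 37.3 ± 12.2 against 172 ± 69.4 (SD, n = 2). Both *aramis* RNAi values were well under both *bam* RNAi values, at 21.7% of the mean. Its log2 fold change of -2.20, with an SE of 0.64, was called (DESeq2 adjusted p = 0.00705). Leaving out 1 library at a time gave -2.57 to -1.72, with a call only without *bam* RNAi replicate 2. Set against the largest Pol II subunit, the ratio of *Polr2M* to *Polr2A* per kb was 0.0650 and 0.0873 under *aramis* RNAi against 0.264 and 0.136 under *bam* RNAi. These ratios did not overlap, but an exact two-sided permutation test of 2 against 2 libraries cannot give a p under 0.333.

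Besides *Polr2M*, none of the 6 tested genes of Pol II alone was called by DESeq2, and 1, *Polr2A*, had an unadjusted p under 0.05. *Polr2A* (FBgn0003277, chromosome X, 11562800 to 11570326, minus strand), the largest subunit, which carries the C-terminal repeats that coordinate mRNA processing, had 2388 and 2844 against 4526 and 4882. The 4 values were tight within groups and did not overlap, at 55.6% of *bam* RNAi, yet the test was not passed (-0.85, SE 0.40, DESeq2 adjusted p = 0.127). *Polr2B*, the second large subunit, had 4779.9 and 3484 against 4292 and 7048. It overlapped between the groups (-0.46, SE 0.44, DESeq2 adjusted p = 0.519). *Polr2C* and *Polr2J*, the assembly pair of Pol II, had -0.74 and -0.78, both with *aramis* RNAi below *bam* RNAi and neither called. *Polr2G*, a stalk subunit, was the member with the highest level per kb in the whole group, with counts of 1095 and 902 against 1687 and 1226 (-0.54, SE 0.43, DESeq2 adjusted p = 0.412). It shares 15.9% of its exon bases with *CG12241* on the other strand. *Polr2I*, a zinc-ribbon subunit known in yeast for transcript fidelity, had 368 and 227 against 250.4 and 383. Its groups overlapped, and its interval was -1.09 to 0.90 around -0.09.

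A pair of members could not be measured. *Polr2D*, the partner of *Polr2G* in the Pol II stalk, and *Polr3K*, the zinc-ribbon subunit of Pol III, were listed at 0 counts in all 4 libraries. All 722 exon bases of *Polr2D* lie within exons of *Ada2a* on the same strand, and all 1245 exon bases of *Polr3K* lie within exons of *Tcs1* on the same strand. *Ada2a* had normalised counts of 289 and 214 under *aramis* RNAi against 308 and 396 under *bam* RNAi, and *Tcs1* was itself at 0 throughout. No level is given for these genes.

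In Pol III, 7 of 9 tested genes had both *aramis* RNAi libraries below both *bam* RNAi libraries (30.3% of all tested genes), and 1 was called lower, or 11.1% against 7.04% of all tested genes. The lowest member was *Polr3G* (FBgn0053051, chromosome 3L, 17426286 to 17427130, minus strand), which with *Polr3C* and *Polr3F* forms the heterotrimer that Pol III uses to open and bind promoters. *Polr3G* had 51.3 and 76.9 under *aramis* RNAi against 510.4 and 86.7 under *bam* RNAi, or 64.1 ± 18.1 against 299 ± 299.6 (SD, n = 2). The *bam* RNAi replicates differed 5.88-fold, and replicate 2 lay just above the *aramis* RNAi values. The call was made at a log2 fold change of -2.22 with an SE of 0.72 (DESeq2 adjusted p = 0.0186). It ranged from -3.00 to -0.43 with a library left out, and was called only without *bam* RNAi replicate 2, so that the size of this change rested on *bam* RNAi replicate 1. Without that library the value was the one nearest to 0.

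Its partners in the heterotrimer had smaller fold changes. *Polr3C* had 408 and 255 against 467 and 728 (-0.85, SE 0.49, DESeq2 adjusted p = 0.227). It had the highest level per kb of the Pol III genes over the 4 libraries, but not within either group alone. *Polr3F* had 200.2 and 154 against 253 and 252 (-0.51, SE 0.50, DESeq2 adjusted p = 0.523). In both genes all 4 values were in order, with no overlap. The ratio of *Polr3G* to *Polr3C* per kb was 0.289 and 0.691 under *aramis* RNAi against 2.51 and 0.273 under *bam* RNAi, and so overlapped between the groups. *Polr3D* and *Polr3E*, the TFIIF-like pair of Pol III, stood at -1.32 (SE 0.53, DESeq2 adjusted p = 0.0645) and, for the latter, -0.77 (SE 0.50, DESeq2 adjusted p = 0.297). *Polr3D* was the uncalled member nearest to the threshold, with 206 and 251 against 809 and 335. Both of its *aramis* RNAi values were lower, and *bam* RNAi replicate 1 was again the high library.

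*Polr3I*, a stalk subunit of Pol III, had 26.7 and 54.5 against 189 and 66.1 (-1.65, SE 0.73, DESeq2 adjusted p = 0.101), but 35.8% of its exon bases overlap *DENR* on the other strand, which makes its counts the least certain among the tested members. *DENR* itself stood at -0.44 (DESeq2 adjusted p = 0.606). The value closest to 0 in Pol III belonged to a catalytic subunit. *Polr3A* (FBgn0030687, chromosome X, 15762956 to 15769514, plus strand), the largest subunit, had 714 and 646 under *aramis* RNAi against 657 and 975 under *bam* RNAi. The groups overlapped, with *aramis* RNAi at 83.4% of *bam* RNAi (-0.26, SE 0.44, DESeq2 adjusted p = 0.732, 95% interval -1.13 to 0.60). *Polr3B* was at -0.51 (SE 0.48, DESeq2 adjusted p = 0.502) and also overlapped.

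The largest subunits of the 3 enzymes can be set side by side within each library, where the scaling cancels. Per kb of transcript, *Polr1A* stood to *Polr2A* at 1.07 in each *aramis* RNAi library and at 1.27 and 1.43 in *bam* RNAi. *Polr3A* stood to *Polr2A* at 0.455 and 0.346 under *aramis* RNAi against 0.221 and 0.304 under *bam* RNAi. *Polr1A* stood to *Polr3A* at 2.36 and 3.10 against 5.75 and 4.70. None of these 3 ratios overlapped between the groups. The Pol I subunit was thus lower relative to both others, and the Pol III subunit higher relative to both others, in each *aramis* RNAi library. With 2 against 2 libraries the smallest exact two-sided permutation p is 0.333, so the differences are given as values. The ratios between the large catalytic partners did overlap. *Polr1A* to *Polr1B* was 1.18 and 1.72 against 2.79 and 1.38, *Polr2A* to *Polr2B* was 0.301 and 0.492 against 0.636 and 0.418, and *Polr3A* to *Polr3B* was 0.839 and 0.835 against 0.852 and 0.630.

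Grouped by their place in the enzyme, the 3 genes of the TFIIF-like modules had a median of -1.06, the 4 assembly genes -0.81, the 6 catalytic genes -0.68 and the 2 tested zinc-ribbon genes -0.15. The zinc-ribbon genes *Polr1H* and *Polr2I* both overlapped between the groups. All 3 TFIIF-like genes had both *aramis* RNAi libraries below both *bam* RNAi libraries, as had the 3 genes of the Pol III heterotrimer and 3 of the 4 assembly genes. Of the 6 catalytic genes 2 did so, *Polr1A* and *Polr2A*, which is near the 30.3% of all tested genes.

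No *Taf* gene was called by DESeq2 or by edgeR, and 3 of 15 had an unadjusted p under 0.05 in each test. In DESeq2 these were *Taf2*, *Taf8* and *Taf9*. The lowest was *Taf9* (FBgn0000617, chromosome X, 17842161 to 17843348, plus strand), which pairs with *Taf6* through a histone fold and is found in both TFIID and SAGA. It had 157 and 168 under *aramis* RNAi against 491 and 270.5 under *bam* RNAi. All *aramis* RNAi values were lower and nearly equal, with 42.6% of the *bam* RNAi level (-1.23, SE 0.51, DESeq2 adjusted p = 0.0768). *Taf6*, its partner, was at -0.45 (SE 0.46, DESeq2 adjusted p = 0.548), and its upper *aramis* RNAi value of 454 almost met the lower *bam* RNAi value of 455.

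*Taf1* and *Taf2*, large subunits that contact the start site of promoters, had close fold changes and unequal precision. *Taf1* (FBgn0010355, chromosome 3R, 6646889 to 6656048, plus strand), the largest Taf, had 749 and 1527 under *aramis* RNAi against 3151 and 1224 under *bam* RNAi. The replicates differed 2.04-fold in *aramis* RNAi and 2.57-fold in *bam* RNAi, and the groups overlapped (-0.94, SE 0.54, DESeq2 adjusted p = 0.227). Its value ran from -1.53 to -0.11 with a library left out. *Taf2* had 905 and 1032 against 2186 and 1479, without overlap (-0.92, SE 0.43, DESeq2 adjusted p = 0.122). *Taf8*, known from human cells to enter TFIID with *Taf2*, had 185 and 244 against 449 and 383 (-0.96, SE 0.47, DESeq2 adjusted p = 0.148). It also showed no overlap.

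The histone-fold pair *Taf11* and *Taf13* was at -0.63 and -0.47, and *Taf12* and *Taf4*, which also pair, were at -0.37 and -0.30. None of these 4 was called, and only *Taf4* overlapped between the groups. *Taf5*, a scaffold of TFIID, was at -0.53 (DESeq2 adjusted p = 0.487), and *Taf7*, which binds *Taf1*, was at -0.85 (DESeq2 adjusted p = 0.313). Both overlapped, the first through *bam* RNAi replicate 1 and the second through *bam* RNAi replicate 2.

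The 3 members with a positive fold change were all *Taf* genes, and none was called. *Taf3* lies on chromosome 4 and had 3082 and 4362 under *aramis* RNAi against 2589.7 and 4189 under *bam* RNAi. The groups overlapped (0.13, SE 0.44, DESeq2 adjusted p = 0.867), and 19.8% of its exon bases are shared with an antisense RNA gene. *Taf10b* had 796 and 587 against 365 and 696 (0.38, SE 0.49, DESeq2 adjusted p = 0.636), also with overlap. With total-count scaling both values turned negative, to -0.23 for *Taf3* and -0.0015 for *Taf10b*. *Taf12L* (FBgn0031623, chromosome 2L, 4700835 to 4701485, minus strand), a homolog of *Taf12* that is known for its role in the testis, had 131 and 69.5 against 60.0 and 56.7. It was the only member with both *aramis* RNAi values above both *bam* RNAi values (0.78, SE 0.66, DESeq2 adjusted p = 0.451), though replicate 2 was close to them.

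*Taf10* and *Taf10b*, both homologs of human TAF10, lie next to each other on chromosome 2L and are read in opposite directions, with 44 bases between them (*Taf10* from 2767890 to 2768612 on the plus strand, *Taf10b* from 2767286 to 2767845 on the minus strand). Their mRNAs differed widely in level. *Taf10* had 56.5 and 86.5 under *aramis* RNAi against 234 and 64.4 under *bam* RNAi (-1.06, SE 0.70, DESeq2 adjusted p = 0.312). Per kb, *Taf10b* exceeded *Taf10* in every library, 16.7-fold and 8.04-fold in *aramis* RNAi and 1.85-fold and 12.8-fold in *bam* RNAi. The ratio in *bam* RNAi replicate 1 was the odd value, and in the other *bam* RNAi library it fell inside the *aramis* RNAi range.

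Levels per kb of the longest transcript allow the members to be ranked, since longer transcripts collect more counts. The 43 tested members spanned 43.9-fold in *aramis* RNAi and 19.4-fold in *bam* RNAi. In *bam* RNAi the highest was *Polr2G* with 1919 normalised counts per kb, followed by *Polr2B* with 1397, and the lowest was *Taf12L* with 98.7. In *aramis* RNAi *Polr2G* was again the highest with 1315, *Taf10b* came next with 1234, and *Polr2M* was the lowest with 30.0. The median member had 202 in *aramis* RNAi and 362 in *bam* RNAi. By class, the median levels in *bam* RNAi were 758 for the subunits of all 3 polymerases, 698 for Pol II, 394 for Pol I, 318 for the Tafs, 271 for the pair shared by Pol I and Pol III, and 262 for Pol III. *aramis* RNAi kept Pol II and the common subunits at the top, with 388 and 425. The order of the classes was not tested.

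**Figure D3:**
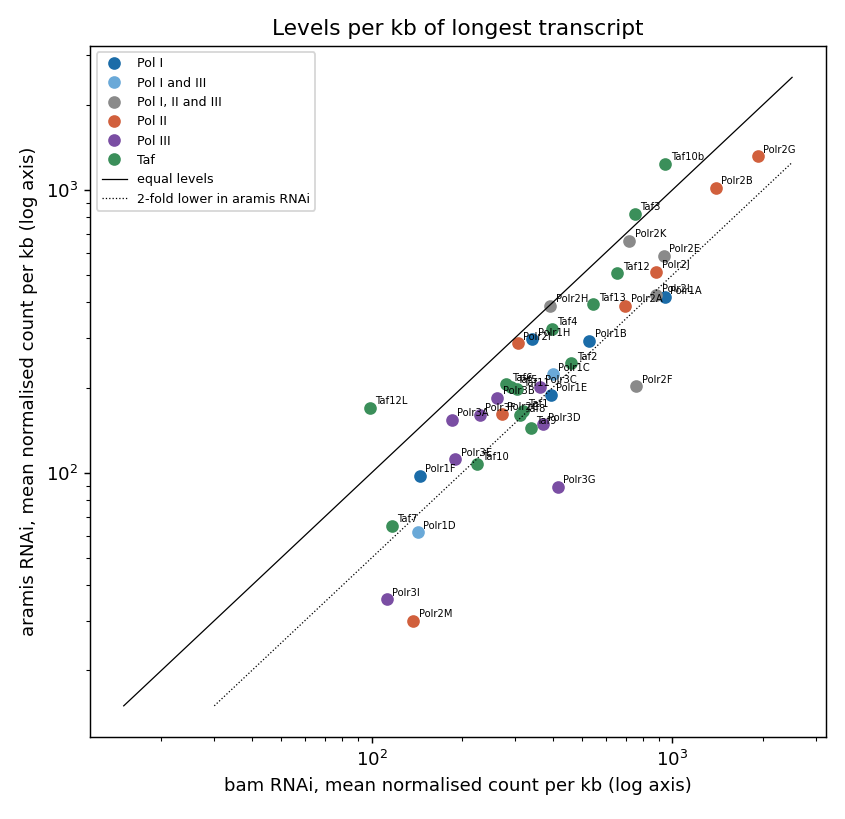
Mean normalised count per kb of the longest transcript in *bam* RNAi (horizontal) and *aramis* RNAi (vertical), both on log axes, with 42 tested members as points coloured by class. Points on the solid line have equal levels and points on the dotted line are 2-fold lower in *aramis* RNAi, and *Polr2F*, *Polr2M*, *Polr3G* and *Polr3I* lie farthest under it.

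Replicates of the same group differed in a patterned way. Of the 43 members, 11 differed more than 2-fold between the *bam* RNAi libraries and 3 between the *aramis* RNAi libraries. Among all tested genes with a mean of at least 50 normalised counts, the shares were 25.3% and 6.03%. The members split by which *bam* RNAi replicate was higher. Replicate 1 was higher for 22 members, 10 of them *Taf* genes, and replicate 2 for 21, of which 5 were *Taf* genes. In the first set the *aramis* RNAi replicate 2 was the higher one for 16 of 22 genes, and in the second set *aramis* RNAi replicate 1 was higher for 18 of 21. The higher replicate thus mostly carried opposite numbers in the 2 groups. Deviations of same-numbered libraries were also opposite over the 7883 tested genes whose mean count reached 50 (correlation -0.55, against -0.65 over the members). The first set had a median fold change of -0.93 with 3 of the 4 calls, and the second -0.51 with 1 call, *Polr1A*. The median transcript length was 1131 bases in the first set and 1234 bases in the second. The part of these library differences in the calls was not tested apart from leaving out each library. The number of called members changed with the library left out, and so did the number of calls over all tested genes. The median fold change of the members ran from -0.69 to -0.57 over these fits.

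**Figure D4:**
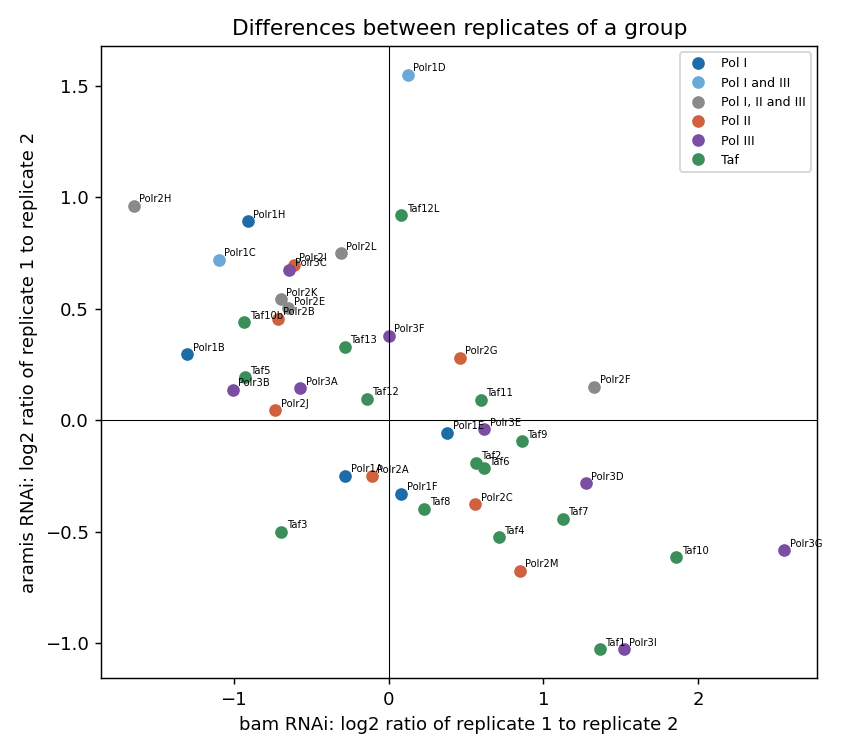
Log2 ratio of replicate 1 to replicate 2 in *bam* RNAi (horizontal) and in *aramis* RNAi (vertical) for 42 tested members, coloured by class. Most points lie in the upper left and lower right, where the higher replicate has opposite numbers in the groups, and *Polr3G* lies farthest to the right because its *bam* RNAi replicates differ 5.88-fold.

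Other parts of the transcription machinery gave similar medians, from lists chosen by name. Over all tested genes, 52.8% were negative and 7.04% were called lower. Of 17 tested Pol II initiation factors, 16 had negative fold changes (median -0.88), and 4 were called lower. These were *TfIIA-S* (-1.30) of TFIIA, *TfIIFalpha* (-1.88) of TFIIF, and *Tfb1* (-1.17) and *Tfb4* (-1.48) of TFIIH, which opens the promoter and phosphorylates Pol II. The edgeR test called 0 of the 17. *Tbp*, which encodes the TATA-binding protein around which TFIID is built, had 186 and 169.9 under *aramis* RNAi against 371 and 422 under *bam* RNAi. Its groups were well apart, but the DESeq2 adjusted p was 0.0683 (-1.16, SE 0.47). Of 11 elongation factors, 10 were negative (median -0.75) and 3 were called lower. The calls were *TfIIS* (-1.82), which restarts stalled Pol II, and both subunits of the histone chaperone FACT, *dre4* (-1.58) and *Ssrp* (-1.36). For *TfIIS* and *TfIIFalpha* the groups overlapped despite the calls, as *bam* RNAi replicate 1 alone was high, with 2680.2 and 2866 against 516 and 418 in replicate 2. Of these 3 elongation calls, edgeR made 1, *dre4*.

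The 8 tested factors of Pol I and Pol III, such as *Tif-IA*, *Brf* and *Bdp1*, which recruit these enzymes, had a median of -0.69 with 6 negative values. Both DESeq2 and edgeR called 0 of them, and 0 had an unadjusted p under 0.05. Among 28 tested subunits of Mediator, the complex that links activators to Pol II, 26 were negative (median -0.57) and 2 were called lower, *MED25* (-2.35) and *MED31* (-1.54), a share of 7.14% that is near that of all tested genes. The edgeR test called *MED25* alone. Of 14 tested SAGA subunits without the Tafs, 13 were negative (median -0.72), and 1 was called lower, *not* (-1.55), a ubiquitin protease, which is again 7.14%, and edgeR called 0, with 4 at an unadjusted p under 0.05. Scaled to the germline markers, the medians of these 5 lists turned positive and 0 of their genes were called lower, where 45 of 11128 tested genes were. Called higher were 6 of 17 initiation factors, 5 of 11 elongation factors and 7 of 8 Pol I and Pol III factors. So were 17 of 28 Mediator and 5 of 14 SAGA subunits, and 6768 of 11128 tested genes. In the initiation, elongation, Mediator and SAGA lists the number of lower calls changed without each library. It fell without either *aramis* RNAi library or *bam* RNAi replicate 1 and rose without *bam* RNAi replicate 2, as it did over all tested genes. With 1 library left out, the medians ran from -1.44 to -0.74 (initiation) and from -1.05 to -0.41 (elongation). They ran from -0.68 to -0.54 for Mediator and from -0.84 to -0.36 for SAGA, against -0.11 to 0.01 for all tested genes. Relatives of the Tafs that are known from the testis were low or near absent. *can* had raw counts of 0 and 1 under *aramis* RNAi against 20 and 21 under *bam* RNAi, *nht* had 4 and 9 against 1 and 1, *sa* was at 0 in all but *bam* RNAi replicate 2 (6 counts), and *mia* had 98 and 89 against 142 and 322. DESeq2 and edgeR called 0 of the 4 tested genes of this list, with *Taf12L* among them, and 2 had an unadjusted p under 0.05 in each.

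**Figure D5:**
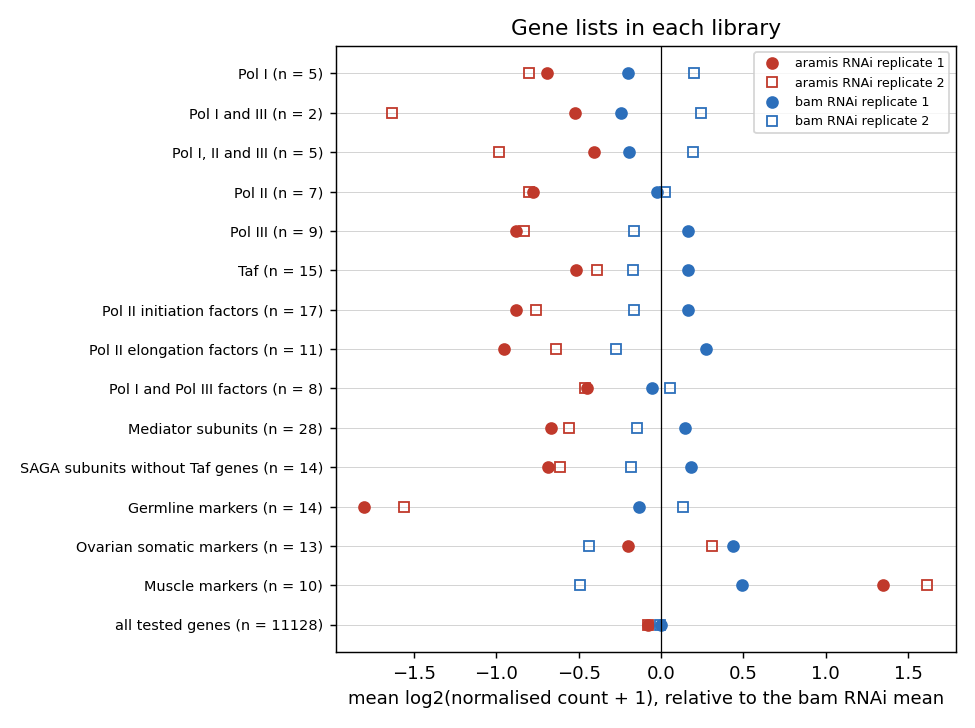
Mean over each list of log2(normalised count + 1) in the 4 libraries, relative to the mean of the *bam* RNAi libraries, with list sizes in parentheses. In every class of polymerase and Taf genes both *aramis* RNAi libraries lie left of both *bam* RNAi libraries. In the mean of the *aramis* RNAi libraries the germline markers lie farther left than each class, and the muscle markers lie to the right. *aramis* RNAi replicate 2 of the Pol I and III pair lies about as far left as that of the germline markers. Scaling to the germline markers would move the *aramis* RNAi points of all lists to the right.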

How the data were processed

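RNA was poly(A)-selected and libraries were made with a directional kit, per the labels. The deposited values are counts of reads per gene that the authors gave unscaled, 1 table per library. The submitters' processing notes list HISAT2 (version 2.1.0), featureCounts (version 1.4.6), DESeq2 (version 1.24.0) and the build dm6, with no roles and no strand setting, so counts of overlapping genes are uncertain. Symbols, positions and lengths (longest transcript) came from Ensembl release 115, and 16647 of 17023 identifiers matched. The other identifiers held 5.52% to 6.66% of the counts of a library.

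The Wald test of DESeq2 (version 1.42.0, R version 4.3.3) was applied to genes whose 4 libraries summed to 10 counts or more. Size factors were medians of ratios, the model held the group alone, fold changes were unshrunken, and p-values were adjusted by Benjamini-Hochberg over all tested genes. A call is an adjusted p under 0.05. Tests were checked on simulated counts drawn with the same dispersion for every gene. That check does not cover the differences between replicates described above. Floors of 3 counts cover counting error only. Precision is limited by 2 libraries per group.

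The members and lists were chosen with earlier results of these data known. Named in full were all called members, the highest per kb, lowest and highest fold change of each class, the largest subunits, *Taf1* and *Tbp*, and other members appear after their values were seen. Values of 1 tested member are not reported here by name and enter counts and medians only. All names of the initiation factor, Mediator, SAGA, testis and somatic lists matched, as did 11 of 12 elongation factors, 9 of 10 factors of Pol I and Pol III, 14 of 16 germline and 10 of 11 muscle markers.

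Results were recomputed with edgeR (version 4.0.16, quasi-likelihood test, TMM scaling), with TMM, total-count or germline-marker scaling in DESeq2, without the count filter or with a minimum of 10 counts per library, without independent filtering, with offsets for transcript length, with the replicate number as a block, alone or with those offsets, and without each library in turn. The crossed pairing of replicates was added after the data were seen.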

Additional observations from a re-analysis of the deposited data

How the results depend on the processing

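TMM scaling, both other count filters and no independent filtering changed no member's sign or call, and edgeR lost 1 call, *Polr1A*. The 4 members lower became 12 with total-count scaling, 0 with germline-marker scaling (24 higher), 7 with length offsets, and 0 to 10 without 1 library (the lone sample of a group is then assumed to vary like the other group). The 2 past both limits, both lower, became 0 to 4 without 1 library. With germline-marker scaling neither was called, and 4 others passed both limits as higher (*Polr2H*, *Taf3*, *Taf10b* and *Taf12L*). The replicate numbers are not said to mark shared handling, and same-numbered libraries deviated in opposite directions (correlation -0.20 over 11128 genes, -0.55 over the 7883 whose mean count reached 50 and -0.65 over the 43 members). With the replicate block, 0 members were called lower and 0 passed both limits, and with the block and length offsets 2 and 1. With the crossed pairing, chosen after the data were seen, 11 were called lower and 1 passed both limits. Over all genes, the main 783 lower and 990 higher calls were 1619 and 543 with total-count scaling and 45 and 6768 with germline-marker scaling. They were 528 and 639 in edgeR, and 1001 and 1122 with length offsets. The block gave 277 and 438, the block with length offsets 375 and 607, and the crossed pairing 1372 and 1596. The cause of these changes was not tested.

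Class medians with total-count scaling were -1.24 (Pol I), -1.06 (all 3 polymerases), -1.09 (Pol II), -1.12 (Pol III) and -0.91 (*Taf*). With germline-marker scaling they were 1.18 (Pol I), 0.95 (Pol I and III), 1.30 (all 3), 1.21 (Pol II), 1.13 (Pol III) and 1.45 (*Taf*). The Pol II median was -0.82 with length offsets and -0.80 with the block as well. Without 1 library the medians ran from -0.98 to -0.62 (Pol I), -1.69 to -0.56 (Pol I and III), -0.96 to -0.33 (all 3), -0.77 to -0.68 (Pol II), -0.72 to -0.52 (Pol III) and -0.73 to -0.18 (*Taf*).

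With germline-marker scaling 37 log2 fold changes turned positive, of which 36 were *Polr1A* 0.78, *Polr1B* 1.18, *Polr1C* 1.17, *Polr1D* 0.72, *Polr1E* 0.85, *Polr1F* 1.37, *Polr1H* 1.79, *Polr2A* 1.10, *Polr2B* 1.53, *Polr2C* 1.16, *Polr2E* 1.30, *Polr2G* 1.36, *Polr2H* 2.04, *Polr2I* 1.89, *Polr2J* 1.21, *Polr2K* 1.87, *Polr2L* 0.90, *Polr3A* 1.72, *Polr3B* 1.50, *Polr3C* 1.13, *Polr3D* 0.53, *Polr3E* 1.13, *Polr3F* 1.43, *Polr3I* 0.19, *Taf1* 0.91, *Taf10* 0.77, *Taf11* 1.27, *Taf12* 1.57, *Taf13* 1.49, *Taf2* 0.98, *Taf4* 1.59, *Taf5* 1.47, *Taf6* 1.45, *Taf7* 1.02, *Taf8* 0.97, *Taf9* 0.65. *Polr2H* also turned positive with the block (0.13), with block and length offsets (0.038) and with the crossed pairing (0.13), and total-count scaling turned *Taf3* to -0.23 and *Taf10b* to -0.0015. Values that changed sign without 1 library ranged from -0.70 to 0.31 for *Polr1H*, from -0.60 to 1.03 for *Polr2H*, from -0.46 to 0.24 for *Polr2I*, from -0.42 to 0.26 for *Polr2K*, from -0.51 to 0.041 for *Polr3A*, from -0.93 to 0.067 for *Polr3B*, from -1.72 to 0.15 for *Taf10*, from -0.0056 to 0.91 for *Taf10b*, from -0.17 to 0.51 for *Taf3*, from -0.62 to 0.10 for *Taf4*. All tested members had a mean of at least 50 counts before scaling, and precision was limited by 2 libraries per group.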
